A study of Mus musculus with 24 samples.

Results

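The 48 interferon-stimulated genes described here were taken by gene symbol from the deposited tables, which held all 48 of them among 54532 genes for whole tumors and 46 among 35275 genes for cultured cells. The identifiers of Gbp5 and Gbp6 were not among the rows used for cultured cells, so that both genes are given for tumors only. The libraries came from D2.1 cells, a mouse mammary line whose tumors are slow to emerge and which serves as a model of dormancy, and from D2A1 cells, a proliferative line of the same origin, both derived from D2 hyperplastic alveolar nodules of female BALB/c mice. Each line was sequenced as 3 cultures, as 4 tumors grown in the mammary fat pad of immunocompetent BALB/c females (BALB/cAnNTac) and as 5 tumors grown in SCID-beige females (C.B-Igh-1b/GbmsTac mice with the Prkdc scid and Lyst bg alleles), which lack T and B cells and have defective NK cells. Mice were 8 to 12 weeks old, received 1000000 cells and were sampled at a tumor volume of about 500 mm3. Each line is a single established line, and a whole tumor holds host cells beside the implanted ones, so that in these bulk libraries a lower share of a cell type and less RNA per cell cannot be told apart.

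Interferon-stimulated genes are switched on when interferons engage their receptors. Type I and type III interferons, made by many cells that sense foreign nucleic acid, act through a complex that includes STAT2 and IRF9 and binds the interferon-stimulated response element (ISRE), whereas interferon gamma, made mainly by T and NK cells, acts through the gamma-activated site (GAS) and through IRF1. Many of the genes respond to both signals, and the guanylate-binding proteins, the immunity-related GTPases and the immunoproteasome are textbook targets of interferon gamma, while the Isg15, Ifit, Oas and Mx genes are classical targets of type I interferon.

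The promoters carried these elements often. A promoter of 250 bases before to 50 after the start was held by the RefSeq table (build GRCm38.p6) for 36 of the 48 genes, and was searched on both strands for GAAANNGAAA, the core of the ISRE, and TTCNNNGAA, the core of the GAS. The ISRE core was found for 21 of the 36 genes (58.3%) against 3.99% of 27025 genes with a promoter, and the GAS core for 12 (33.3%) against 9.55%. Both cores were found for 22.2% of the members and 0.614% of all genes. The ISRE core was present for 4 of 4 guanylate-binding proteins, 5 of 6 immunity-related GTPases and 7 of 14 antiviral effectors, but for 1 of 5 immunoproteasome genes and 1 of 4 regulators. These matches describe letters in a window and not bound sites. Stretches before the start are shown for the genes whose tumor values are given sample by sample and whose core lies outside annotated exons, with bases inside annotated exons left out, 5′ to 3′ on the strand of the gene, and with capitals marking the cores.
Stat2, chr10:128270248-128270497, plus strand: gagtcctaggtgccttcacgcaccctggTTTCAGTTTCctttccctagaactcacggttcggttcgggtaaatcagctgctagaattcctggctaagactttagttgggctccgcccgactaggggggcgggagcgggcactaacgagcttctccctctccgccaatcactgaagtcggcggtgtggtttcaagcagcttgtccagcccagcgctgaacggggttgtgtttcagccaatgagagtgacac
Oas3, chr5:120777662-120777795, minus strand: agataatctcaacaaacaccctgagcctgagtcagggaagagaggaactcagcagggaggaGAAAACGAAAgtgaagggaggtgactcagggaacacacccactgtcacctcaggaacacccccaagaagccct
Gbp5, chr3:142496684-142496899, plus strand: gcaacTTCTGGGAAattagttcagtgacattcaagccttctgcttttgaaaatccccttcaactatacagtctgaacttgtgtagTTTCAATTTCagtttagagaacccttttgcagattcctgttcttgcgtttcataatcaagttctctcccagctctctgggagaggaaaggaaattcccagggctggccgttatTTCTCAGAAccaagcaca
Tgtp2, chr11:49064213-49064462, minus strand: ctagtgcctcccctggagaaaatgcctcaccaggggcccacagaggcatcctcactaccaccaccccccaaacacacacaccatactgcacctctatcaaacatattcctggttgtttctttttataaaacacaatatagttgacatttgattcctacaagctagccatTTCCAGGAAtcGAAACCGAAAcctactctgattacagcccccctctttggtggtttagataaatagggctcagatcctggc
Socs1, chr16:10785537-10785786, minus strand: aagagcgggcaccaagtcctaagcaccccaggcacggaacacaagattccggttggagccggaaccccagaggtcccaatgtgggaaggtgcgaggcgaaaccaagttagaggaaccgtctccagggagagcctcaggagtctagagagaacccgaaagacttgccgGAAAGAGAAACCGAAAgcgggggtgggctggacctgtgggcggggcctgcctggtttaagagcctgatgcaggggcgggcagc
In Tgtp2 a GAS core beginning 81 bases before the start was followed by an ISRE core at 70 bases. Gbp5 held an ISRE core on the opposite strand at 165 bases and GAS cores at 245 and 52 bases. The pair of ISRE cores of Socs1, at 83 and 77 bases, overlap each other. Stat2 and Oas3 each held a single ISRE core, at 222 bases on the opposite strand and at 75 bases.

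Library totals ranged from 13566949 to 18355153 counts for tumors and from 16837260 to 24818234 for cultures. Levels are given as CPM, read counts scaled to a common library size after TMM correction for library composition, and levels of different genes are compared only as deposited FPKM, which corrects for gene length. A gene was called where the adjusted p of the edgeR quasi-likelihood test (Benjamini-Hochberg over all genes tested) was under 0.05. Tumors came from individual mice, while nothing says that the cultures of a line were grown separately, so that p-values for cultures measure the spread between these samples, which may be technical. Most T cell markers moved with the host in both lines. The summed level of 8 T cell markers was 75.9 to 209.6 CPM in D2.1 tumors from BALB/c hosts and 9.07 to 20.9 in SCID-beige mice, and 9.91 to 27.7 against 3.60 to 6.18 CPM in D2A1 tumors. Of these markers 7 of 8 were called higher in BALB/c hosts for D2.1 and 4 of 7 for D2A1, where 0.871% and 0.906% of all genes were. In D2A1 tumors Cd4 was at 0.991 to 1.45 CPM in BALB/c hosts against 0.442 to 2.36 in SCID-beige mice. Trac was at 2.54 to 5.16 against 2.57 to 3.85 CPM there. Cd3d, Cd3e and Cd3g were at 0 to 0.278 CPM in D2A1 tumors of SCID-beige mice. The 4 NK cell markers summed to 32.2 to 56.1 against 8.78 to 34.7 CPM in D2.1 tumors and to 0.619 to 3.78 against 0.189 to 1.46 in D2A1 tumors. The 6 macrophage markers summed to 1595 to 1909 against 836 to 1859 CPM in D2.1 tumors and to 1229 to 2304 against 716 to 1279.8 in D2A1 tumors, with 0 of 6 and 1 of 6 called. The 5 dendritic cell markers summed to 37.7 to 66.0 against 15.5 to 30.2 CPM in D2.1 tumors, and to 7.43 to 16.4 against 9.24 to 12.5 in D2A1 tumors. Of the D2A1 sums 2.84 to 6.09 against 4.64 to 7.57 CPM were Zbtb46, which was at 6.17 to 8.95 CPM in D2A1 cultures, without host cells. The 3 markers of plasmacytoid dendritic cells, a major source of type I interferon, summed to 6.39 to 26.5 against 0.691 to 5.01 CPM in D2.1 tumors and to 0 to 4.50 against 0.680 to 1.24 in D2A1 tumors. The 4 B cell markers summed to 6.33 to 77.3 against 2.39 to 5.81 CPM in D2.1 tumors and to 0.232 to 0.778 against 0.186 to 0.558 in D2A1 tumors. In D2.1 tumors 1 of 4 NK cell markers was called, higher in BALB/c hosts. None was called there of the 5 dendritic cell, 3 plasmacytoid dendritic cell and 2 B cell markers tested. In D2A1 tumors none was called of the 4 dendritic cell markers and the 1 plasmacytoid dendritic cell marker tested. No NK or B cell marker passed the filter on low counts in D2A1 tumors. The part of these cells in the values below was not tested. In D2.1 tumors from BALB/c hosts, milk transcripts reached 267 CPM in replicate 1 and skin markers (Krt1, Krt10, Krt15 and Lor) 121 CPM in replicate 4. The 4 skeletal muscle markers summed to 315 CPM in replicate 1 of that group, and to 224 and 179 CPM in D2.1 SCID-beige replicates 4 and 5 against 0.799 to 16.9 in the other 3.

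Whether the immune status of the host went with interferon-stimulated expression was asked within each line, by comparing tumors from BALB/c and SCID-beige mice. The genes called in D2.1 tumors were guanylate-binding proteins and immunity-related GTPases, all higher in BALB/c hosts. Those called in D2A1 tumors, also all higher in BALB/c hosts, came from these families and from the catalytic immunoproteasome subunits, together with the regulator Stat2. No antiviral effector was called in either line. In D2A1 tumors 12 of the 48 genes were called higher in BALB/c hosts and 0 lower, where 0.906% of the 14572 genes tested were called higher and 0.261% lower. In D2.1 tumors 5 of 48 were called higher and 0 lower, where 0.871% of 14929 genes were called higher and 0.0201% lower. All 48 genes had a fitted change above 0 in D2A1 tumors, as did 51.8% of all genes, with a median log2 fold change of 0.65 against 0.01 over all genes. For D2.1 tumors 44 of 48 were above 0, as were 48.8% of all genes, with a median of 0.48 against -0.01. The lowest BALB/c tumor exceeded the highest SCID-beige tumor for 14 genes in each line, where 3.31% of all genes did so in D2A1 tumors and 3.15% in D2.1 tumors. Gbp5, Iigp1 and Tgtp2 were called in both lines, which was 60% of the D2.1 calls and 25% of the D2A1 calls. The calls rested on few libraries. Leaving out D2.1 SCID-beige replicate 4 or D2.1 BALB/c replicate 2 gave 11 called genes in D2.1 tumors and leaving out D2.1 BALB/c replicate 3 or D2.1 SCID-beige replicate 1 gave 0, while leaving out D2A1 BALB/c replicate 4 gave 2 called genes in D2A1 tumors and leaving out D2A1 BALB/c replicate 3 gave 16. The number called over all genes also changed with the library left out, over the ranges given in the last section. These counts of members are therefore not set against a share of all genes.

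**Figure D1:**
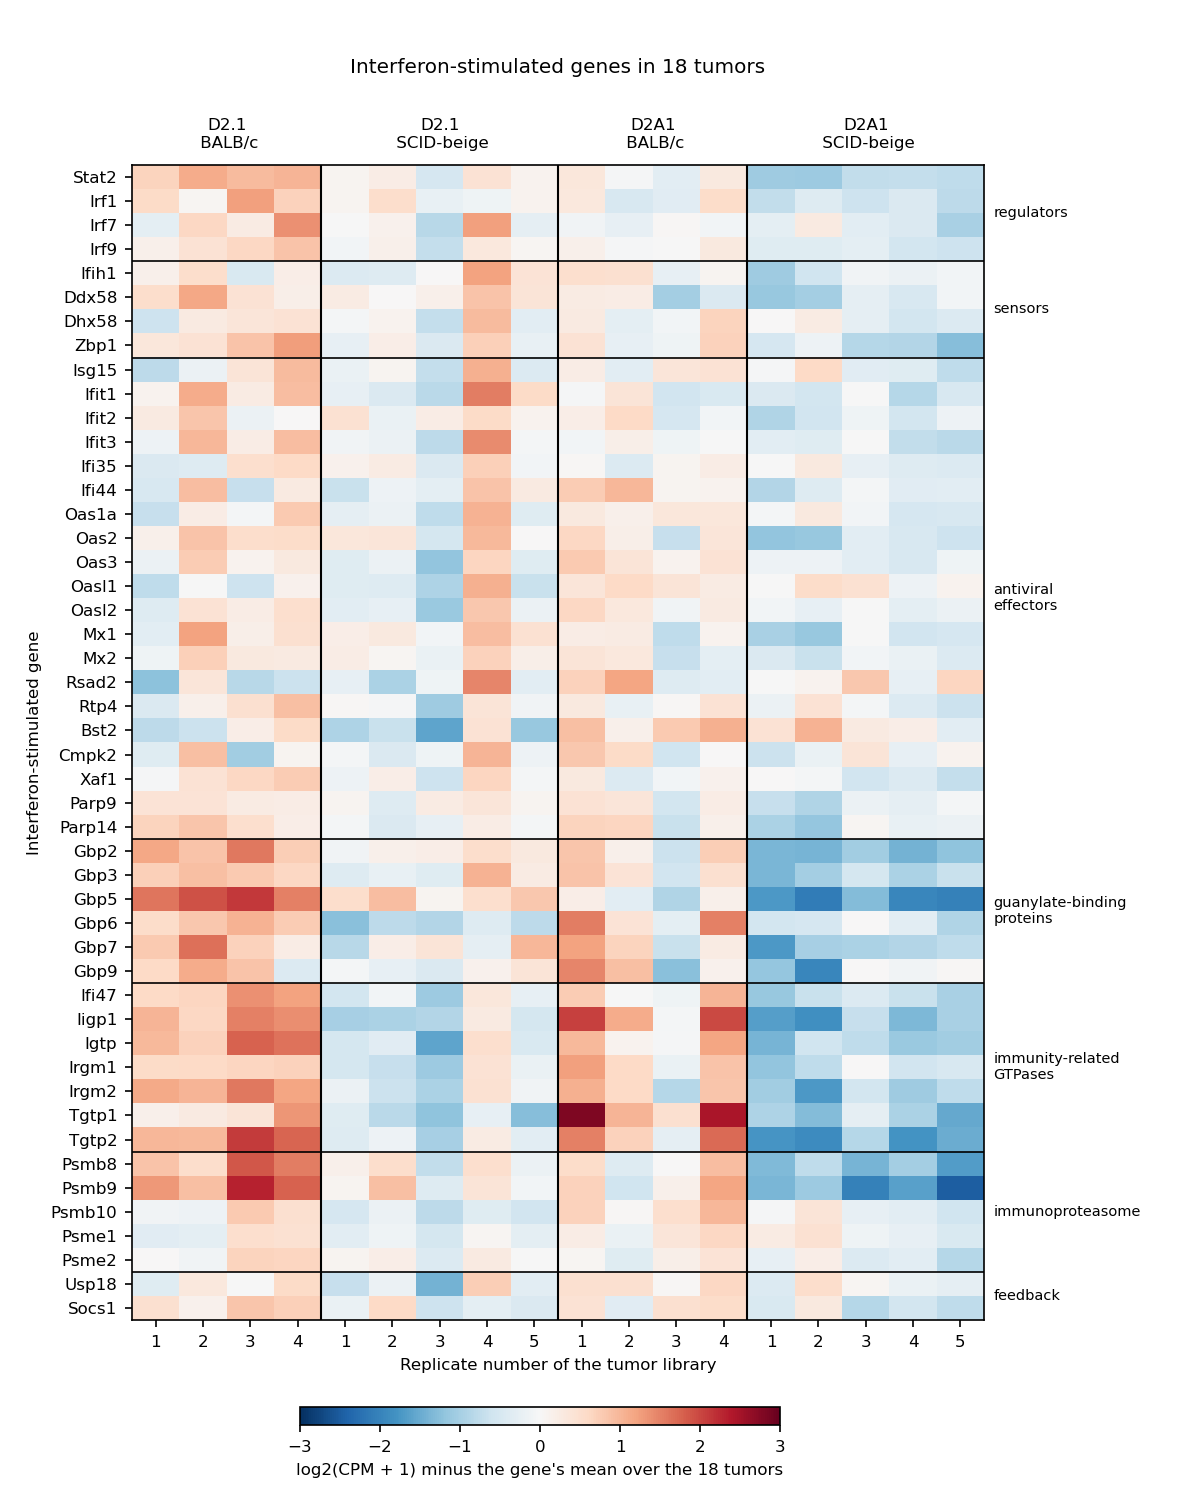
Heat map of the 48 interferon-stimulated genes (rows, by role) in the 18 tumors (columns, by line and host, labelled with replicate numbers). Colour is log2(CPM + 1) minus the gene's mean over the 18 tumors. The red blocks of the guanylate-binding proteins, immunity-related GTPases and immunoproteasome lie mostly in the BALB/c columns. Averaged over a role, D2A1 BALB/c replicate 3 is below the mean of the 18 tumors for the guanylate-binding proteins (-0.74) and immunity-related GTPases (-0.12). D2A1 BALB/c replicate 2 is below it for the immunoproteasome (-0.30). D2.1 SCID-beige replicate 4 is above it for each of these roles (0.27, 0.32 and 0.18). So are replicate 5 of that group for the guanylate-binding proteins (0.31) and replicate 2 for the immunoproteasome (0.27). D2.1 SCID-beige replicate 4 is also red across the sensors and antiviral effectors.

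**Figure D2:**
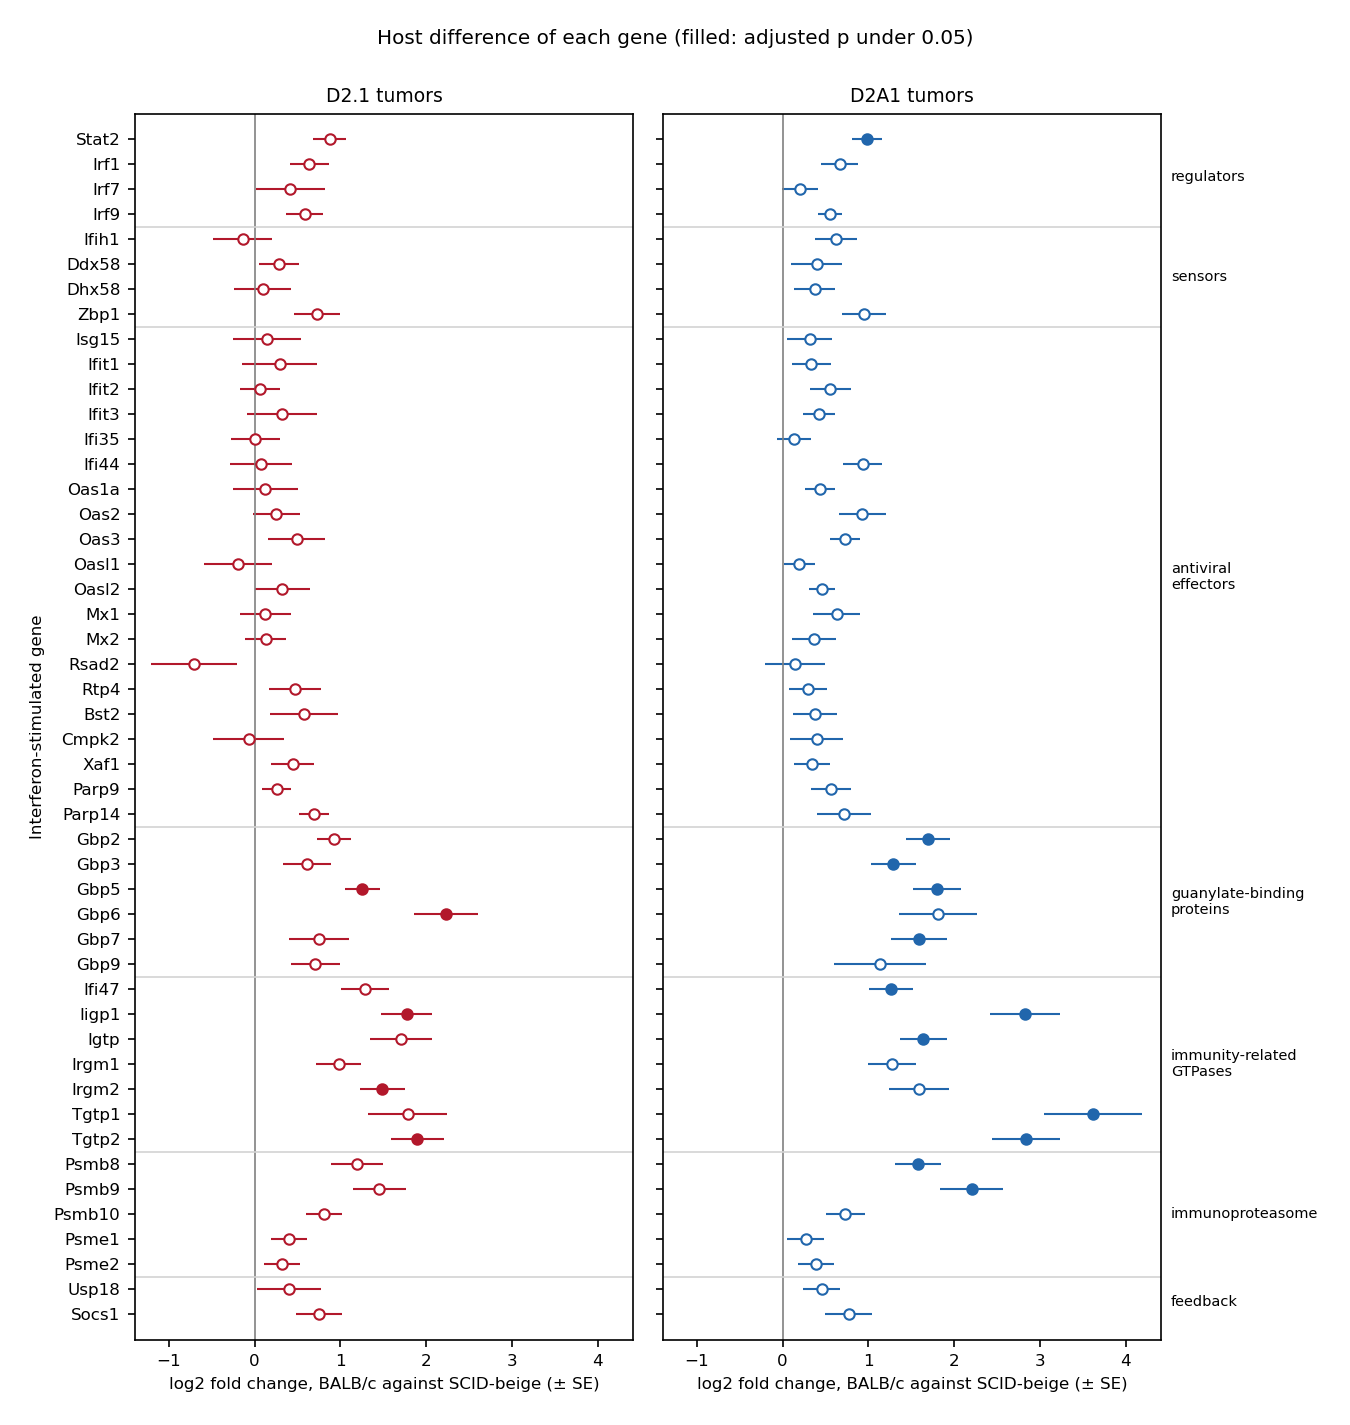
Log2 fold change (± SE) of BALB/c against SCID-beige hosts for each gene, in D2.1 tumors (left) and D2A1 tumors (right); filled points have an adjusted p under 0.05 by edgeR. All 48 points lie above 0 in D2A1 tumors, and the points for the immunity-related GTPases run from 0.98 to 1.89 in D2.1 and from 1.27 to 3.62 in D2A1.

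The interferon genes themselves were near the limit of detection. Of 9 ligand genes listed, Ifng, which encodes interferon gamma, was the only one to pass the filter on low counts for any tumor comparison. Ifng was at 0.483, 1.03, 2.73 and 1.86 CPM in D2.1 tumors from BALB/c hosts and at 0.0614, 0.411, 0.0576, 0.179 and 0.882 in those of SCID-beige mice. In D2A1 tumors Ifng was at 0.522, 0.372, 0.0604 and 1.06 CPM in BALB/c mice and had 0 counts in all 5 SCID-beige tumors, which allows a level of up to 0.194 to 0.221 CPM per library (3 counts, counting error only). The D2.1 groups overlapped, and the log2 fold change of 2.27 ± 0.79 (SE) was not called by edgeR (adjusted p = 0.29). None of the 6 receptor genes was called by edgeR in either line, with 1 of 6 tested at an unadjusted p under 0.05 in D2.1 tumors and 0 of 5 in D2A1 tumors; DESeq2 called 1 and 0. The receptor chain genes Ifnar1, Ifnar2, Ifngr1 and Ifngr2 had log2 fold changes between -0.06 and 0.29 in both lines. Ifnlr1, the type III receptor chain, was at 2.25, 1.15, 2.09 and 1.54 CPM in D2.1 tumors from BALB/c hosts and at 0.492, 0.0587, 0.288, 0 and 0.693 in those of SCID-beige mice, with no overlap and a log2 fold change of 2.54 ± 0.77 that was not called by edgeR (adjusted p = 0.19).

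Of 88 further pathway genes, 5 of 78 tested were called higher in D2.1 tumors of BALB/c hosts and 9 of 76 in D2A1 tumors, with 0 lower in either, where 0.871% and 0.906% of all genes were called higher. Cxcl9, a chemokine induced by interferon gamma that attracts activated T cells, was at 54.0, 30.7, 56.4 and 87.9 CPM in D2.1 tumors from BALB/c hosts and at 7.26 to 13.0 in SCID-beige mice, a log2 fold change of 2.61 ± 0.29 (SE; adjusted p = 0.0013). In D2A1 tumors Cxcl9 was at 91.4, 42.6, 33.6 and 103 CPM against 3.46 to 5.44, a log2 fold change of 4.01 ± 0.35 (adjusted p = 0.0013). The groups stood clear of each other in both lines. Nlrc5, which drives MHC class I genes, was also called in both lines, with log2 fold changes of 1.59 ± 0.23 in D2.1 and 3.0 ± 0.58 in D2A1 tumors, as were Ciita, its counterpart for MHC class II (1.62 ± 0.32 and 2.90 ± 0.46), Gbp4 (1.56 ± 0.24 and 2.91 ± 0.50) and the peptide transporter gene Tap1 (1.38 ± 0.28 and 1.87 ± 0.27). Genes called in D2A1 tumors also included Gbp8 (2.86 ± 0.50), B2m, the light chain of MHC class I (1.21 ± 0.21), and Sp100 (0.90 ± 0.16).

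Among the 4 regulators, Stat2, a transcription factor of the type I response (chr10:128270559-128292849), had the smallest p in both lines. Stat2 was at 101, 140.2, 123 and 129 CPM in D2.1 tumors from BALB/c hosts and at 68.0, 74.7, 44.8, 86.9 and 68.6 in SCID-beige mice. In D2A1 tumors it was at 80.4, 62.5, 51.0 and 79.0 CPM against 30.1, 29.5, 37.7, 38.4 and 37.2. Every BALB/c tumor was above every SCID-beige tumor of its line. Stat2 rose in D2A1 tumors by a log2 fold change of 0.98 ± 0.17 (SE; adjusted p = 0.019, edgeR), and its change of 0.87 ± 0.19 in D2.1 tumors was just short of the threshold (adjusted p = 0.060); the 2-sided exact permutation p was 0.00794 in each line, the smallest that 4 against 5 tumors can give. Irf1, a factor induced by interferon gamma, had log2 fold changes of 0.64 ± 0.23 in D2.1 and 0.66 ± 0.21 in D2A1 tumors, Irf9 0.58 ± 0.22 and 0.55 ± 0.14, and Irf7, which amplifies the type I response, 0.42 ± 0.40 and 0.20 ± 0.21, none of them called.

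Among the 4 sensors of foreign nucleic acid none was called in either line, with 1 of 4 at an unadjusted p under 0.05 in D2.1 tumors and 2 of 4 in D2A1 tumors, where 9.97% and 10.1% of all genes were; DESeq2 called 0 and 1. Zbp1, which binds Z-form nucleic acid (chr2:173206612-173218923), was at 80.9, 85.99, 115 and 152 CPM in D2.1 tumors from BALB/c hosts and at 53.5, 73.3, 46.4, 105 and 54.2 in SCID-beige mice. In D2A1 tumors it was at 86.5, 53.4, 58.2 and 103 CPM against 44.7, 56.8, 34.9, 34.3 and 25.6. The groups overlapped in both lines, through SCID-beige replicate 4 in D2.1 and SCID-beige replicate 2 in D2A1. Its log2 fold changes were 0.73 ± 0.27 and 0.94 ± 0.26 (adjusted p = 0.32 and 0.12, edgeR). The RNA sensor genes Ifih1 (MDA5), Ddx58 (RIG-I) and Dhx58 (LGP2) ranged from -0.14 to 0.28 in D2.1 tumors and from 0.37 to 0.62 in D2A1 tumors.

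The 20 antiviral effectors had a median log2 fold change of 0.20 in D2.1 and 0.41 in D2A1 tumors, and edgeR called none of them in either line. At an unadjusted p under 0.05 there was 1 of 20 in D2.1 tumors and 10 of 20 in D2A1 tumors, where 9.97% and 10.1% of all genes were. DESeq2 called 1 and 2 of them higher, where it called 2.80% and 1.86% of all genes higher. In D2.1 tumors 17 of 20 and in D2A1 tumors 20 of 20 were fitted above 0. Oas3, an enzyme whose oligoadenylates activate RNase L (chr5:120753098-120777661), was at 19.0, 37.4, 23.3 and 26.7 CPM in D2.1 tumors from BALB/c hosts and at 16.6, 19.2, 8.99, 34.6 and 16.7 in SCID-beige mice. In D2A1 tumors Oas3 was at 38.1, 28.4, 23.2 and 29.8 CPM against 19.3, 19.3, 17.1, 15.3 and 19.6. The groups overlapped in D2.1 tumors and stood apart in D2A1 tumors, where the log2 fold change was 0.72 ± 0.18 (adjusted p = 0.080, edgeR; 2-sided exact permutation p = 0.00794); in D2.1 tumors it was 0.49 ± 0.34. Parp14, an ADP-ribosyltransferase (chr16:35832874-35871544), was at 132, 148, 118 and 95.7 CPM in D2.1 tumors from BALB/c hosts and at 80.3, 61.4, 70.4, 97.2 and 80.1 in SCID-beige mice. In D2A1 tumors Parp14 was at 132, 131, 51.6 and 93.0 CPM against 42.5, 36.3, 87.2, 71.6 and 73.3. Its groups overlapped in both lines, and the log2 fold changes were 0.69 ± 0.18 and 0.72 ± 0.31 (adjusted p = 0.11 and 0.45). Isg15, the ubiquitin-like modifier, had log2 fold changes of 0.14 ± 0.40 and 0.32 ± 0.26, Ifit1, which binds foreign RNA, 0.29 ± 0.44 and 0.34 ± 0.23, and Mx1 0.12 ± 0.30 and 0.63 ± 0.27 in D2.1 and D2A1 tumors. Rsad2, the antiviral enzyme viperin, had the lowest change of all members in D2.1 tumors, -0.71 ± 0.50. Without D2.1 SCID-beige replicate 4 the log2 fold changes in D2.1 tumors were -0.05 for Rsad2, 0.55 for Isg15 and 0.85 for Ifit1, none of them called. This tumor held the highest value of its group for each of these genes, so leaving it out was bound to raise them.

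The 6 guanylate-binding proteins, large GTPases that attack the membranes of pathogens inside cells, were fitted above 0 in both lines, with medians of 0.84 in D2.1 and 1.64 in D2A1 tumors. Gbp5 and Gbp6 were called in D2.1 tumors, and Gbp2, Gbp3, Gbp5 and Gbp7 in D2A1 tumors. Gbp2 (chr3:142620602-142638008) was at 194, 158, 262 and 144 CPM in D2.1 tumors from BALB/c hosts and at 79.9, 95.6, 100.05, 125.9 and 106 in SCID-beige mice. In D2A1 tumors Gbp2 was at 155, 95.9, 55.3 and 145 CPM against 32.9, 32.1, 41.2, 31.5 and 36.7. All BALB/c tumors were above all SCID-beige tumors in each line, and the spread of the D2A1 SCID-beige tumors was small beside the difference. Gbp2 rose by a log2 fold change of 1.70 ± 0.26 in D2A1 tumors (adjusted p = 0.012, edgeR) and stood at 0.93 ± 0.20 in D2.1 tumors (adjusted p = 0.052); the 2-sided exact permutation p was 0.00794 in each. Gbp5, a promoter of inflammasome assembly (chr3:142493978-142522344), was at 66.9, 83.2, 96.8 and 63.2 CPM in D2.1 tumors from BALB/c hosts and at 31.5, 41.8, 22.7, 30.9 and 38.6 in SCID-beige mice. In D2A1 tumors Gbp5 was at 24.6, 17.0, 10.9 and 23.9 CPM against 5.78, 4.24, 8.16, 4.76 and 4.54. Neither line showed overlap between hosts, and Gbp5 rose by 1.26 ± 0.20 in D2.1 (adjusted p = 0.018) and by 1.80 ± 0.28 in D2A1 tumors (adjusted p = 0.014). Gbp6 rose by 2.23 ± 0.38 in D2.1 tumors (adjusted p = 0.021) and stood at 1.81 ± 0.46 in D2A1 tumors (adjusted p = 0.092), with the limit that 64.5% of its 100-base stretches of exon are shared with Gm43302.

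The 7 immunity-related GTPases, which act on the vacuoles that hold intracellular parasites and bacteria, had the highest median of the role groups in D2.1 tumors, 1.70, and 1.64 in D2A1 tumors, and all 7 were at an unadjusted p under 0.05 in each line. Iigp1, Irgm2 and Tgtp2 were called in D2.1 tumors, and Ifi47, Igtp, Iigp1, Tgtp1 and Tgtp2 in D2A1 tumors; DESeq2 called all 7 in each line. Tgtp2, a GTPase first named from T cells (chr11:49057194-49064206), was at 32.8, 32.3, 72.2 and 55.8 CPM in D2.1 tumors from BALB/c hosts and at 12.04, 14.4, 7.60, 19.3 and 12.6 in SCID-beige mice. In D2A1 tumors Tgtp2 was at 47.8, 26.7, 13.2 and 54.4 CPM against 3.99, 3.61, 8.37, 3.90 and 5.05. The hosts did not overlap in either line, and BALB/c replicate 3 of D2A1, at 13.2 CPM, was the nearest to the SCID-beige tumors. Tgtp2 rose by 1.89 ± 0.31 in D2.1 tumors (adjusted p = 0.018, edgeR) and by 2.84 ± 0.40 in D2A1 tumors (adjusted p = 0.011); the 2-sided exact permutation p was 0.00794 in each. Tgtp1 rose by 3.62 ± 0.57 in D2A1 tumors, the highest of any member there, from 0.568 to 2.79 CPM in SCID-beige to 5.31 to 30.5 CPM in BALB/c mice. Because 73.1% of the 100-base stretches of Tgtp1 are shared with Tgtp2, and 76.8% of those of Tgtp2 with Tgtp1, the split of reads between the pair is uncertain, as it is for Igtp and Irgm2, whose exons overlap. Iigp1, an effector against Toxoplasma and Chlamydia, rose by 1.77 ± 0.30 in D2.1 (adjusted p = 0.021) and by 2.83 ± 0.41 in D2A1 tumors (adjusted p = 0.011), and shares no such stretch with another gene.

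**Figure D3:**
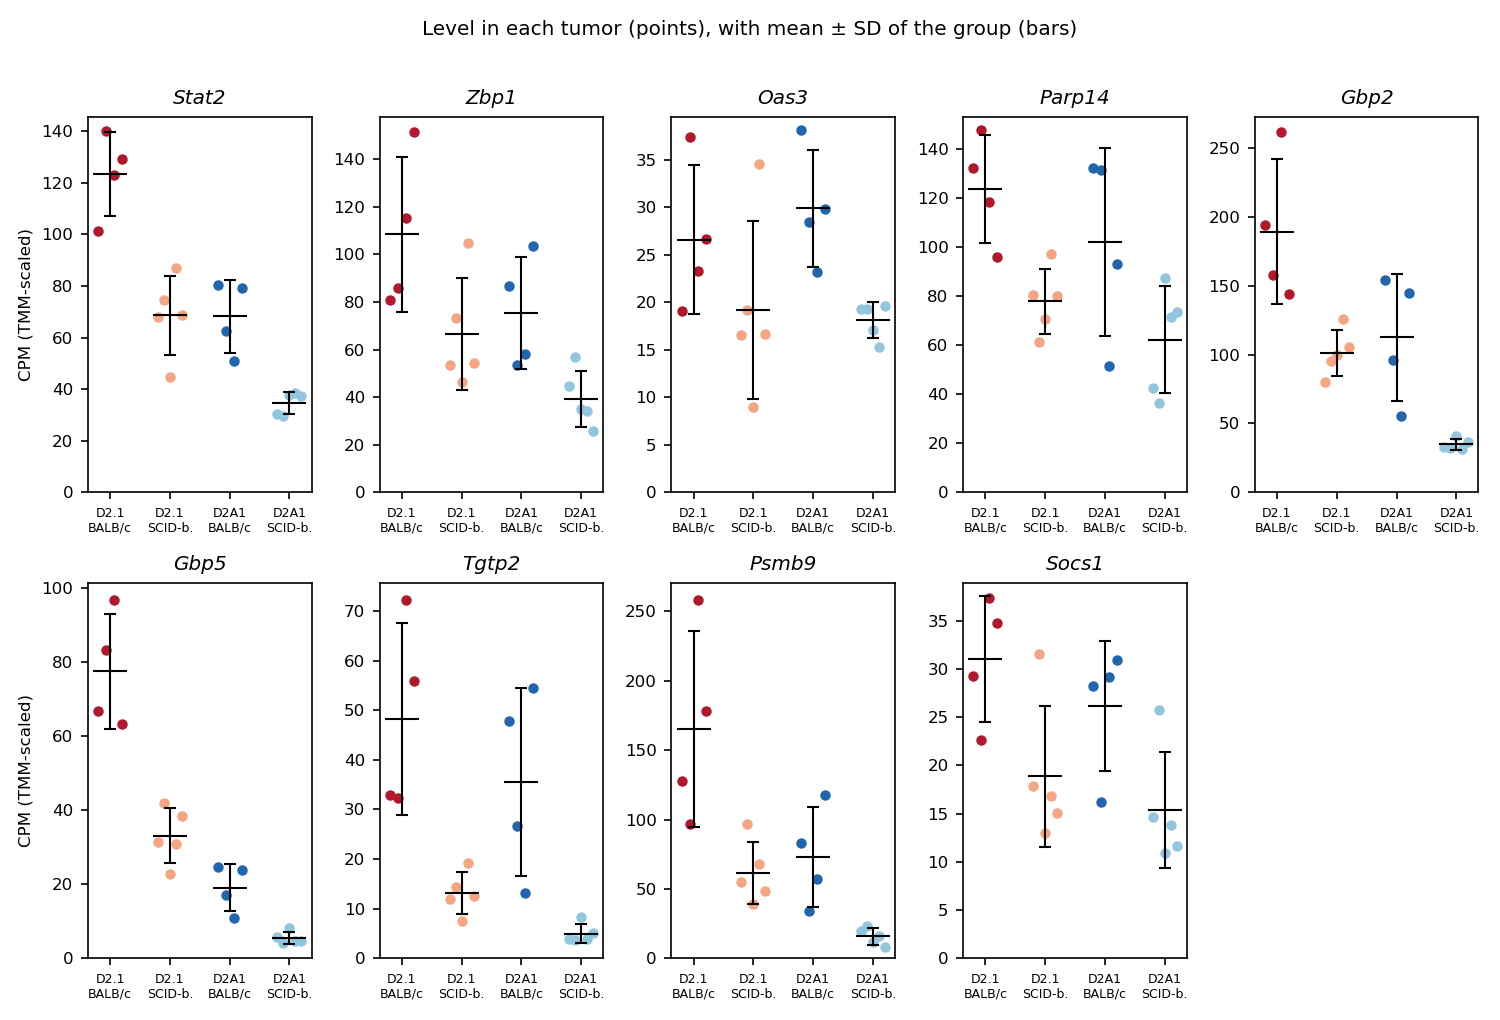
Level (CPM) of the 9 genes given sample by sample, 1 panel a gene, in each tumor of the 4 groups (points), with the mean ± SD of the group (bars). Stat2, Gbp2, Gbp5 and Tgtp2 have no overlap between hosts in either line, whereas Zbp1, Parp14 and Socs1 overlap in both.

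The immunoproteasome replaces the standard catalytic proteasome subunits by Psmb8, Psmb9 and Psmb10 and favours peptides that fit MHC class I, while Psme1 and Psme2 encode its activator. Psmb9 (chr17:34181987-34187764) was at 128, 97.02, 258 and 178 CPM in D2.1 tumors from BALB/c hosts and at 54.9, 97.01, 38.9, 68.0 and 48.7 in SCID-beige mice. In D2A1 tumors Psmb9 was at 83.1, 33.9, 57.1 and 117 CPM against 19.4, 23.6, 11.9, 15.8 and 8.45. The D2A1 groups stood apart, and in D2.1 the lowest BALB/c tumor, replicate 2, lay beside the highest SCID-beige tumor, also replicate 2. Psmb9 rose by 2.20 ± 0.37 in D2A1 tumors (adjusted p = 0.017, edgeR; 2-sided exact permutation p = 0.00794) and stood at 1.45 ± 0.31 in D2.1 tumors (adjusted p = 0.052; exact permutation p = 0.0159). Psmb8 rose by 1.58 ± 0.27 in D2A1 tumors (adjusted p = 0.017) and stood at 1.19 ± 0.31 in D2.1 tumors. Psmb10 had 0.81 ± 0.21 in D2.1 and 0.73 ± 0.23 in D2A1 tumors, and the activator genes Psme1 and Psme2 lay between 0.27 and 0.40 in both lines, none of them called. The 16 constitutive proteasome genes, measured for comparison, had medians of -0.12 and -0.03, with 0 called by edgeR or DESeq2 and 0 at an unadjusted p under 0.05 in either line.

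Neither feedback gene was called by edgeR or DESeq2, with Socs1 at an unadjusted p under 0.05 in both lines. Socs1, which inhibits the JAK kinases (chr16:10782240-10785536), was at 29.2, 22.7, 37.3 and 34.8 CPM in D2.1 tumors from BALB/c hosts and at 17.9, 31.5, 13.0, 16.8 and 15.1 in SCID-beige mice. In D2A1 tumors Socs1 was at 28.2, 16.2, 29.2 and 30.9 CPM against 14.7, 25.7, 10.9, 13.9 and 11.7. In each line SCID-beige replicate 2 lay inside the range of the BALB/c tumors, and the log2 fold changes were 0.75 ± 0.27 and 0.77 ± 0.28 (adjusted p = 0.31 in each, edgeR). Usp18, which removes ISG15 from proteins and damps the type I receptor, had 0.40 ± 0.37 and 0.46 ± 0.22.

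D2.1 SCID-beige replicate 4 stood apart from the other SCID-beige tumors of its line. Averaged over the antiviral effectors, its log2 CPM was 0.86 above the mean of the 18 tumors, where the other 4 tumors of the group lay between -0.57 and -0.11, and for the sensors it was 0.95 above against -0.26 to 0.06. Ifit1 was at 142 CPM in this tumor and at 26.8 to 71.4 in the other 4, Isg15 at 118 against 33.9 to 59.5, and Rsad2 at 54.9 against 9.51 to 17.3. It was also the highest of its group for the immunity-related GTPases, at 0.32 against -1.19 to -0.50, and for the regulators, at 0.47 against -0.58 to 0.26. For the guanylate-binding proteins and the immunoproteasome it lay within the range of the other 4, at 0.27 against -0.45 to 0.31 and at 0.18 against -0.57 to 0.27. The same tumor had the lowest macrophage marker sum of its group, 836 CPM, the highest sum of 5 epithelial markers, 1233 CPM, and the highest skeletal muscle sum, 224 CPM, and the part of these in its values was not tested. Without it the median log2 fold change of the members in D2.1 tumors was 0.73, that of the antiviral effectors 0.53 and that of the immunity-related GTPases 2.04. Stat2, Gbp2, Gbp3, Gbp5, Gbp6, Ifi47, Iigp1, Igtp, Irgm1, Irgm2 and Tgtp2 were then called, and no antiviral effector was. Because this tumor was singled out for its high values of these same genes, leaving it out was bound to widen the host difference. These values show how much this library weighed and carry no separate support.

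**Figure D4:**
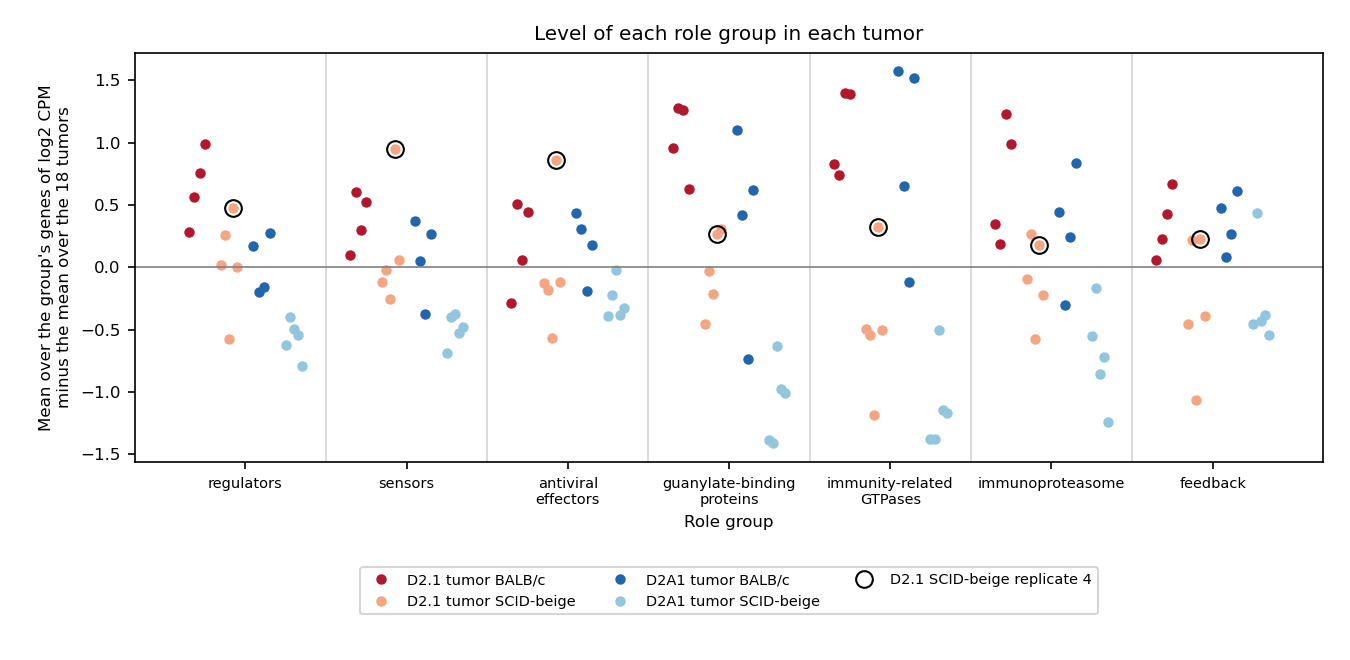
Level of each role group in each of the 18 tumors: the mean over its genes of log2 CPM minus the gene's mean over all tumors, with points coloured by line and host and D2.1 SCID-beige replicate 4 circled. The circled tumor is the highest of all 18 for the sensors (0.95) and the antiviral effectors (0.86), and lies above the other 4 tumors of its group, but below all 4 D2.1 tumors from BALB/c hosts, for the immunity-related GTPases (0.32).

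Whether the host difference itself differed between the lines was tested as an interaction over all 18 tumors. No member was called by edgeR or DESeq2, where 0.0187% of 16036 genes were called by edgeR. At an unadjusted p under 0.05 there were 2 of 48, Gbp2 and Tgtp1, where 8.45% of all genes were. The median difference of the members, D2.1 minus D2A1, was -0.24 on the log2 scale, and -0.02 without D2.1 SCID-beige replicate 4. That tumor was singled out for its high values of these genes, so the direction of this shift was fixed in advance. Tgtp1 had the largest difference, -1.86 ± 0.75, and Gbp2 had -0.79 ± 0.34 (adjusted p = 0.51 and 0.52, edgeR). For Stat2 the difference was -0.13 ± 0.26 and for Psmb10 0.05 ± 0.32. A difference between the lines in the response of these genes to the host was therefore not shown, and standard errors of 0.26 to 0.75 leave room for differences of that size.

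The lines also differed from each other apart from the host. In culture, with no host cells present, 28 of 46 genes were called, 23 of them higher in D2.1 cells and 5 lower, where 24.2% of 12489 genes were called higher and 20.7% lower. The median log2 fold change was 0.60 against -0.02 over all genes. Gbp2 was at 48.9, 53.6 and 44.9 CPM in the D2.1 cultures and at 6.52, 7.32 and 10.1 in the D2A1 cultures, a log2 fold change of 2.62 ± 0.19 (adjusted p = 1.3e-05, edgeR). Mx1 was at 21.8, 19.7 and 10.5 CPM against 0.634, 0.738 and 0.905, a log2 fold change of 4.50 ± 0.35 (adjusted p = 1.9e-05). Zbp1 was at 16.9, 18.2 and 10.8 CPM against 1.90, 2.21 and 2.34, a log2 fold change of 2.83 ± 0.26 (adjusted p = 4.5e-05). The cultures of the lines did not overlap for any of these 3 genes, and D2.1 replicate 3 was the lowest D2.1 culture for each. An exact permutation test of 3 against 3 cannot go below 0.1, which was its p for each. Psmb9, Ifit3, Iigp1 and Tgtp2 were also higher in D2.1 cells, with log2 fold changes of 3.23 ± 0.32, 3.03 ± 0.45, 2.50 ± 0.29 and 2.48 ± 0.51. The 5 genes called lower were Oas3 (-0.76 ± 0.23), Gbp9 (-0.99 ± 0.18), Irgm1 (-0.85 ± 0.15), Tgtp1 (-1.14 ± 0.32) and Socs1 (-0.99 ± 0.19). With the replicate number as a block, 33 genes were called, 25 higher and 8 lower, where 30.7% of all genes were called higher and 29.7% lower. The genes called lower only with the block were Bst2 (-1.25), Rtp4 (-0.34) and Usp18 (-0.39), and Ifit1, called at 1.29 ± 0.31 without the block, was not (adjusted p = 0.097). The T cell marker sum of the cultures was 0.161 to 2.02 CPM.

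In SCID-beige mice, D2.1 tumors exceeded D2A1 tumors in 16 of 48 genes called and fell below in 1, where 17.2% of 14355 genes were called higher and 14.8% lower. The called genes included Gbp5 (2.59 ± 0.24), Psmb9 (1.95 ± 0.30), Gbp2 (1.55 ± 0.16), Tgtp2 (1.41 ± 0.30), Psmb8 (1.34 ± 0.24) and Stat2 (0.99 ± 0.18). The gene called lower was Bst2, the membrane protein tetherin, at -1.0 ± 0.34 (adjusted p = 0.038, edgeR). Its levels were 106, 126.3, 66.8, 272 and 91.0 CPM in D2.1 and 275, 414, 242, 232 and 161 in D2A1 tumors, and D2.1 replicate 4 was the D2.1 tumor that lay among the D2A1 tumors. The median over the members was 0.49 against 0.02 over all genes. Without that tumor the median was 0.27, with 13 genes called higher and 3 lower. The share of all genes called in that fit is not given here. The tumor had been singled out for its high values of these genes, so the direction of the shift in the median followed from that choice. Cell markers differed between the same tumors. NK cell markers summed to 8.78 to 34.7 CPM in D2.1 against 0.189 to 1.46 in D2A1 tumors. T cell markers summed to 9.07 to 20.9 against 3.60 to 6.18 CPM. Of the 8 T cell markers 3 were tested, with 2 called higher in D2.1 tumors and 1 lower. Cd4 was at 4.16 to 12.7 CPM in D2.1 against 0.442 to 2.36 in D2A1 tumors, and Trac at 0 to 0.922 against 2.57 to 3.85. Fibroblast markers summed to 3217 to 6527 against 793 to 1891 CPM and endothelial markers to 46.3 to 78.7 against 155 to 233. In cultures, with no host cells, fibroblast markers summed to 1818 to 2620 CPM in D2.1 and 76.8 to 98.3 in D2A1 cells. The D2.1 culture sums were mostly Col1a1, at 1761 to 2544 CPM, with Pdgfra at 56.6 to 75.8 and Dcn and Lum at 0 to 0.0885. In D2.1 SCID-beige tumors Dcn was at 168 to 416 and Lum at 31.1 to 202 CPM. NK cell markers summed in the cultures to 3.11 to 4.78 against 0 to 0.288 CPM, all of it Klrb1c, with the other 3 markers at 0. The part of these markers in the line difference was not tested. In BALB/c mice 3 of 48 genes were called higher in D2.1 tumors, Gbp5 (2.02 ± 0.27), Stat2 (0.86 ± 0.18) and Psmb9 (1.18 ± 0.39), and 1 lower, Oasl1 (-0.68 ± 0.23), where 16.8% of 14953 genes were called higher and 15.8% lower. Same-numbered BALB/c tumors of the lines deviated together, and with the replicate number as a block 14 genes were called, 10 higher (Stat2, Irf1, Irf9, Ddx58, Zbp1, Ifit1, Ifit3, Gbp5, Psmb8 and Psmb9) and 4 lower (Oasl1, Rsad2, Bst2 and Tgtp1), where 22.8% of all genes were called higher and 24.8% lower. Only the label numbers and this shared deviation pair these tumors, which came from individual mice, so the blocked calls are given as an alternative fit. The comparisons within hosts and between hosts share tumors and are not independent.

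**Figure D5:**
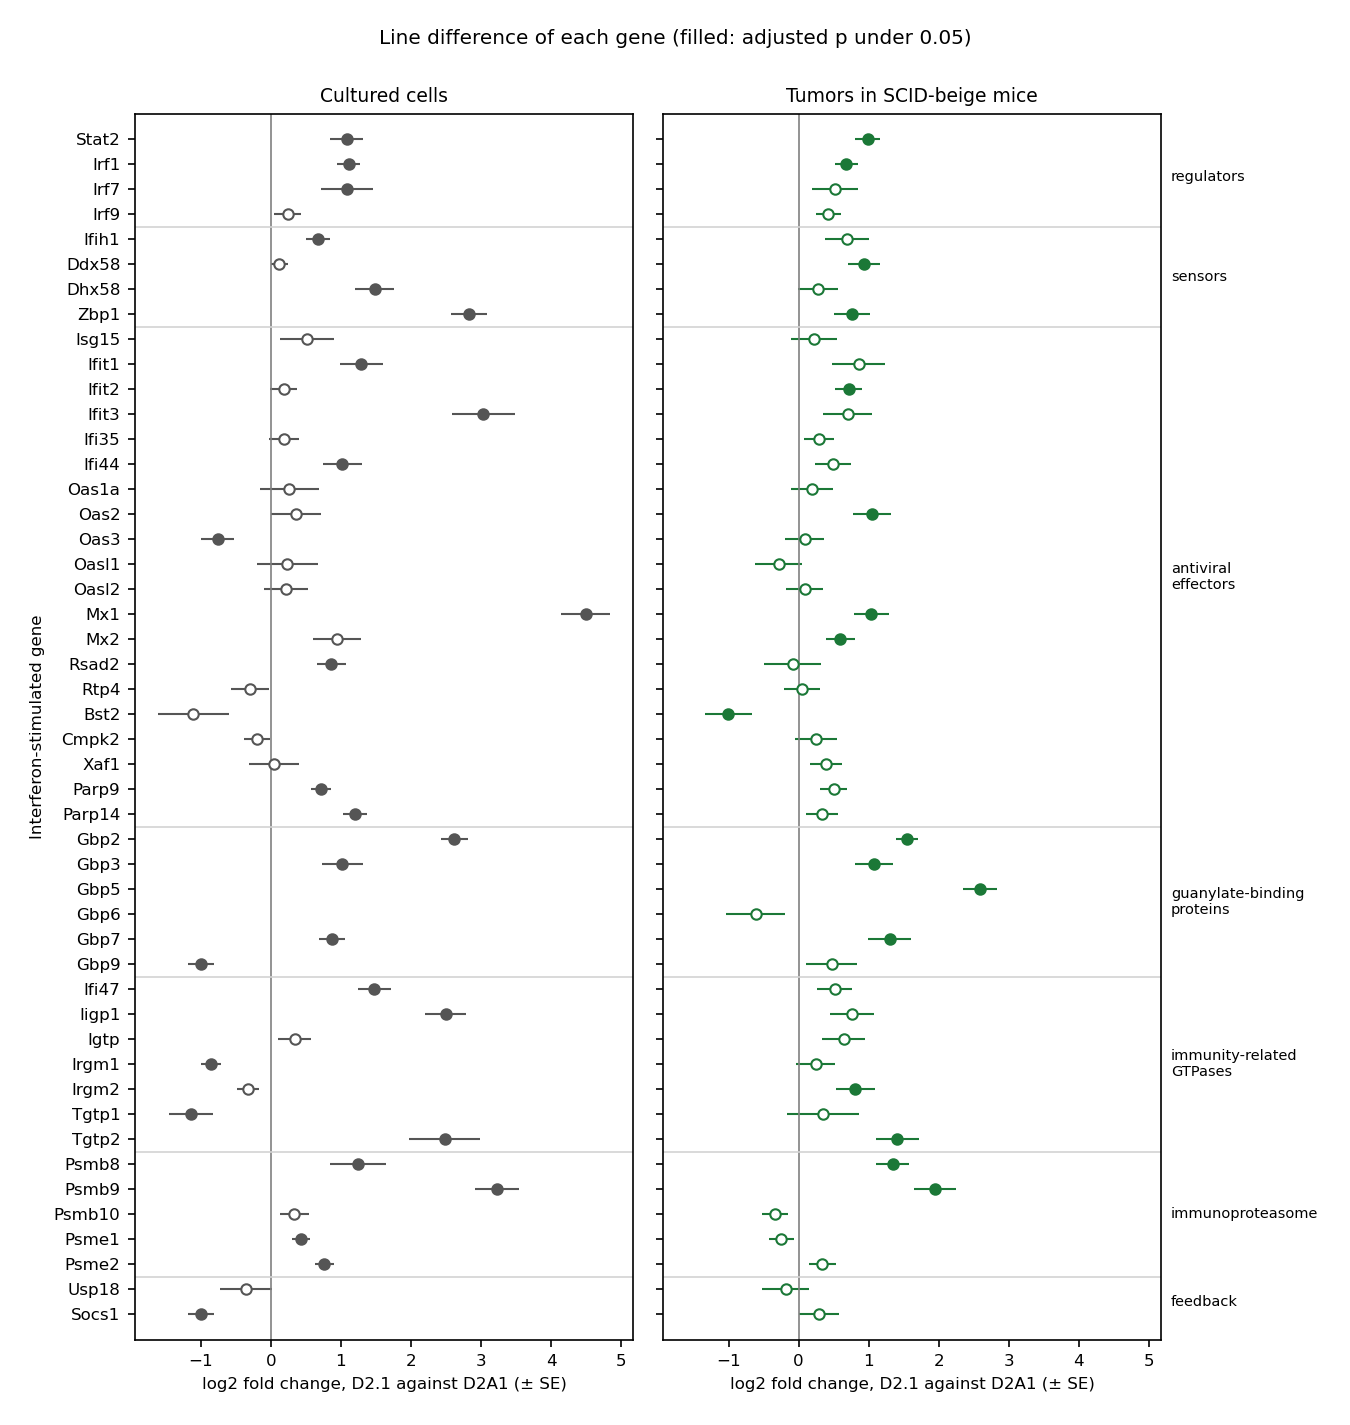
Log2 fold change (± SE) of D2.1 against D2A1 for each gene, in cultured cells (left) and in tumors of SCID-beige mice (right); filled points have an adjusted p under 0.05 by edgeR. Gbp5 and Gbp6 have no point for cultured cells. Gbp2, Tgtp2 and Psmb9 lie to the right of 0 in both panels, and Tgtp1 lies at -1.14 in cultures and at 0.35 in tumors. The split of reads between Tgtp1 and Tgtp2 is uncertain.

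Between genes, compared by deposited FPKM within cultures or within tumors, the members spanned a wide range of levels. Cultures and tumors, which were processed as separate tables, are set side by side by CPM, with no test. Psme2, Bst2 and Psme1 were the members with the highest group means in D2.1 tumors from BALB/c hosts, at 353, 317 and 281 FPKM, and Gbp6 the one with the lowest, at 1.53. In D2A1 tumors from BALB/c hosts Bst2 led at 591 FPKM. Bst2 was also the member with the highest mean in cultures, at 433 FPKM in D2A1 and 182 in D2.1 cells. The gene lengths behind FPKM differed between cultures and tumors. Psmb9 was at 0.750 CPM and 0.268 FPKM in D2A1 culture replicate 1, but at 19.4 CPM and 17.1 FPKM in D2A1 SCID-beige replicate 1. The same gene is therefore set side by side between cultures and tumors by mean CPM, which does not use the length. Whether the reads counted for a gene also differed between the 35275 genes listed for cultures and the 54532 for tumors is not known. Psmb9 had a mean of 0.560 CPM in D2A1 and 5.31 in D2.1 cultures, and of 15.8 to 165 across the 4 tumor groups. Psmb8 was at 3.77 and 8.93 CPM in the cultures and at 57.3 to 327 in the tumors. Isg15 was at 55.9 and 80.3 CPM in the cultures and at 52.1 to 66.0 in the tumors, and Oas3 at 39.6 and 23.4 against 18.1 to 29.9.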

How the data were processed

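RNA sequencing of 6 cultures and 18 tumors was used. Total RNA of cultures and snap-frozen tumors was sequenced on an Illumina NovaSeq instrument, and the submitters' processing notes name STAR and mm10; the counter, annotation and strand setting are not given in the sources used here. The authors deposited read counts per gene, not normalized, and FPKM. Among cultures and among tumors, FPKM equal the counts divided by gene length and library total within 0.1% for 100% of the genes compared. Cultures and tumors were deposited as separate tables, so tests stayed within a table. Rows without annotation held 0.0969% and 0.0446% of the counts. A count of 3 corresponded to 0.121 to 0.178 CPM in cultures and 0.163 to 0.221 CPM in tumors. Counts were fitted over all genes with edgeR 4.0.16 (R 4.3.3; TMM, filterByExpr, robust quasi-likelihood test, Benjamini-Hochberg adjustment, threshold 0.05) on the groups compared, and the interaction on all 18 tumors; ± beside a fold change is its SE. Exact permutation tests compared mean log2 CPM (prior count 2) of single genes. The scripts were tested on simulated data. The alternatives were DESeq2 1.42.0, its size factors, other filters, a replicate block, 1 fit of all tumors and each library left out. Same-numbered samples deviated together in cultures (correlations 0.184 to 0.491) and between lines in BALB/c tumors (0.101 to 0.493), the pairing coming only from the numbers in the labels. Genes given sample by sample were, by role, those with the smallest p in a host comparison, and those with the smallest p in culture. The members and lists were chosen with earlier results of these data known. Promoters came from RefSeq (GRCm38.p6), gene positions from GENCODE M21 (GRCm38), and shared reads were estimated from 100-base stretches of exon. One gene of the pathway list is counted in its totals but not reported here by name.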

Additional observations from a re-analysis of the deposited data

Results flagged for a closer look

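In 5 of 192 groups of 4 or 5 tumors a single library stood far from the others for a member gene, where chance alone gives about 1 in 20 groups. Dhx58 was at 15.4 CPM in D2.1 BALB/c replicate 1 and at 29.2 to 32.8 in the other 3 tumors. Mx1 was at 14.7 CPM in D2A1 BALB/c replicate 3 and at 27.5 to 30.4 in the other 3. Cmpk2, a mitochondrial nucleotide kinase, was at 30.7 CPM in D2.1 SCID-beige replicate 4 and at 10.5 to 14.0 in the other 4. Gbp7 was at 11.01 CPM in D2A1 SCID-beige replicate 1 and at 19.0 to 22.5 in the other 4. Socs1 was at 16.2 CPM in D2A1 BALB/c replicate 2 and at 28.2 to 30.9 in the other 3. The cause of these values was not tested.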

How the results depend on the processing

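Of 1011 values of named genes under alternatives, 846 kept their direction and side of the threshold, 151 lost the call, 14 gained it and 0 changed direction. For the host comparison of D2.1 tumors, the 5 members called became 15 with DESeq2, 10 with at least 10 counts in every library of a group, 9 without a filter and 9 in 1 fit of all tumors, and the 133 genes called of all tested became 588 with DESeq2, 275 without a filter and 261 in 1 fit. For D2A1 tumors the 12 members became 19 and the 170 genes 517 with DESeq2. With the replicate block, 0 members and 14 genes were called in D2.1 and 0 members and 0 genes in D2A1 tumors; same-numbered tumors did not deviate together there (correlations -0.199 to 0.170 and -0.439 to -0.187), so the numbers are not taken as pairs. Between lines in BALB/c tumors, the 4 members became 10 with DESeq2, 14 with the replicate block and 7 in 1 fit of all tumors. For the interaction, the 3 genes called became 105 with DESeq2, 6 with its size factors and 7 without a filter. With 1 library left out, the members called ranged from 0 to 11 and all genes from 26 to 314 in D2.1 tumors (1 member without BALB/c replicate 1 or 4, 2 without SCID-beige replicate 5), from 2 to 16 and from 27 to 172 in D2A1 tumors (5 without BALB/c replicate 1 or SCID-beige replicate 1, 4 without SCID-beige replicate 4), and from 2 to 7 members between lines in BALB/c tumors; the interaction called 0 to 12 genes. The cause of these changes was not tested. At 4 or 5 tumors a group, calls near the threshold depend on single libraries.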
